A study of Mus musculus with 38 samples.

Results

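Genes of zinc binding and zinc transport were followed in intestinal epithelial cells of C57BL/6 mice that lack hexokinase 2, a glycolytic enzyme, in the epithelium. The 7 genes described were the metallothioneins Mt1, Mt2 and Mt4, the metal-sensing transcription factor Mtf1, the zinc exporter Slc30a1 (ZnT1) and the zinc importers Slc39a4 (ZIP4) and Slc39a14 (ZIP14). They are 7 of the 46078 genes in the count tables and were found by gene name. KO mice carried a floxed Hk2 allele that Cre under the Villin promoter deletes in intestinal epithelium, and WT mice were Hk2 fl/fl littermates without that deletion. The 6 groups were WT day 0 (4 libraries), KO day 0 (5), WT day 3 (7), KO day 3 (8), WT day 7 (7) and KO day 7 (7). Day 0 mice were untreated, and the mice of days 3 and 7 drank 1.5% dextran sodium sulfate (DSS), which injures the colonic epithelium and causes colitis. The colitis mice were males of 10 to 12 weeks, and both genotypes shared cages. For untreated mice the labels name ages of 9 to 11 and of 86 to 92 weeks, without assigning either to the day 0 libraries.

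Metallothioneins are small cysteine-rich proteins that bind zinc and copper and buffer the free metal in the cell. When cytosolic zinc rises, MTF-1 binds metal response elements in promoters and raises transcription of Mt1, Mt2 and Slc30a1. Glucocorticoids and inflammatory cytokines also induce Mt1 and Mt2. In the intestine ZIP4 takes up dietary zinc at the apical membrane, ZIP14 imports zinc and other divalent metals, and ZnT1 moves zinc out across the basolateral membrane. Mt4 is known mainly from stratified squamous epithelium.

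Promoter sequences are shown for the 4 genes with a match to the core of the metal response element, a motif that known targets of MTF-1 share. Whether the motif bears on the levels in these libraries was not tested. Of the 7 genes, 5 have a promoter entry in the RefSeq table of build GRCm38.p6, and the other two, Slc39a4 and Slc39a14, are named only. Each line gives the 250 bases before the annotated start on the plus strand, 5′ to 3′. Capitals mark each match to TGCACNC or TGCGCNC on either strand. No 2 matches overlap.
Mt1, chr8:94178839-94179088: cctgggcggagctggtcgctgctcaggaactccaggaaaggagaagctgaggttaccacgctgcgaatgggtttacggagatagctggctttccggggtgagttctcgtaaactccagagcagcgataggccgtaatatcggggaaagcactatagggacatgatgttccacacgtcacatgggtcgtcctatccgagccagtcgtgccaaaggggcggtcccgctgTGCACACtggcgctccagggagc
Mt2, chr8:94172368-94172617: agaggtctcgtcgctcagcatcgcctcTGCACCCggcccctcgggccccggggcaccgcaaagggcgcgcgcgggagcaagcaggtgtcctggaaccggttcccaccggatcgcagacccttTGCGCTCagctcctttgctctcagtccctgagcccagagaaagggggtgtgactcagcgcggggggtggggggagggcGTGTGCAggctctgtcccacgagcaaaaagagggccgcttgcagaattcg
Mt4, chr8:94136954-94137203: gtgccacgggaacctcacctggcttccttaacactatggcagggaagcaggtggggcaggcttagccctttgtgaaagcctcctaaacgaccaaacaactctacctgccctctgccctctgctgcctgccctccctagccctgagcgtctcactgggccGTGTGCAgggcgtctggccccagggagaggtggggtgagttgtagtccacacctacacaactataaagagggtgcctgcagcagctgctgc
Slc30a1, chr1:191906531-191906780: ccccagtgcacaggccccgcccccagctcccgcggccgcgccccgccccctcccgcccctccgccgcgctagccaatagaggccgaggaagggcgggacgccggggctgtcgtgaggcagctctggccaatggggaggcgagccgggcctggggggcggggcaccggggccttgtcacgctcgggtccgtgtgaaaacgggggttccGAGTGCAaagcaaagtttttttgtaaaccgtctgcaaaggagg
Mt2 had 3 matches, whose first bases lay 223, 128 and 50 bases before the start. Mt1, Mt4 and Slc30a1 had 1 match each, starting 23, 91 and 43 bases before the start, and Mtf1 had none. Over all 32851 RefSeq promoter windows of this length, 21.4% held at least 1 match. The antioxidant response element core TGACNNNGC occurred in Mt2 and in Slc30a1, and in 10.2% of all windows. The STAT core TTCNNNGAA was in none of the 5 windows and in 7.02% of all. These are letter matches in a window that ends at the annotated start, and bases after that start were not searched. The number of matches therefore depends on where the start is annotated and does not rank the genes.

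The 3 metallothionein genes lie in 1 cluster on chromosome 8 of GRCm38, all on the plus strand. In the files Mt4 spans 94137204 to 94139031, Mt3 spans 94152607 to 94154148, Mt2 spans 94172618 to 94173567 and Mt1 spans 94179089 to 94180325. Mtf1 lies at 124802104 to 124849800 on chromosome 4 and Slc30a1 at 191906767 to 191913247 on chromosome 1, both on the plus strand. Both overlap other annotated genes, and the counting ignored strand, so some of their reads may belong to those genes. Slc39a4 lies at 76612385 to 76616852 on chromosome 15 and Slc39a14 at 70303469 to 70351425 on chromosome 14, both on the minus strand. No window of 50 bases in the transcripts of Mt1, Mt2 or Mt4 occurred in another gene, so reads of this length tell them apart.

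Total counts ran from 10.5 to 60.6 M per library (median 43.2 M), and 3 counts corresponded to 0.0495 to 0.286 counts per M (CPM). Levels below are CPM scaled by TMM, a correction for library composition. Hk2 was lower in KO than in WT without overlap on day 0, at 33.1 to 118 CPM against 254 to 449 CPM. On day 3, the library labelled d3_KO_345 had 434.6 CPM of Hk2, above all 7 WT libraries (97.0 to 220 CPM), whereas the other 7 KO libraries had at most 127.9 CPM. Tdpx-ps1, a pseudogene looked at after its values were seen, was at 0.0416 CPM in that library, 1.59 to 2.497 CPM in the other 7 KO libraries and 0 to 0.133 CPM in WT. In d3_WT_346 Tdpx-ps1 was at 0 CPM. On day 7 Tdpx-ps1 was at 1.43 to 2.23 CPM in KO, with 1.63 CPM in d7_KO_420, and at 0 to 0.282 CPM in WT. On day 0 Tdpx-ps1 overlapped between the genotypes, at 0 to 1.75 CPM in KO and 0 to 0.87 CPM in WT. It therefore did not track genotype in that series. By its Hk2 level, the genotype label of d3_KO_345 is in doubt, and that library is counted as labelled. Without it the day 3 log2 fold changes of KO against WT were 0.32 for Mt1, -0.58 for Mt2, 1.35 for Mt4 and 0.12 for Mtf1, none called. That library also had the highest summed inflammation genes of day 3, at 177 CPM. The library d3_WT_346 had the lowest Hk2 of WT day 3. On day 7 Hk2 ranged from 56.1 to 268 CPM in KO and from 228 to 611 CPM in WT. The KO value of 268 CPM was that of d7_KO_420 and lay inside the WT range, whereas the other KO libraries had at most 194 CPM. The epithelial marker Epcam was at 1253 to 1923 CPM in every library. The labels name intestinal epithelial cells and the series text names colon. Day 0 libraries belong to another library series, so differences between day 0 and later days cannot be told apart from that series. In these bulk samples, fewer cells of a type and less RNA per cell cannot be told apart.

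Before treatment Mt1 and Mt2 were higher in every KO library than in every WT library. Mt1 was at 44.1, 33.5, 41.1 and 70.3 CPM in the 4 WT libraries and at 144, 143, 137, 114 and 154 CPM in the 5 KO libraries. The KO libraries lay close together, and the highest WT library stayed well below the lowest KO library. The means were 47.3 ± 16.0 CPM (SD, n = 4) and 138 ± 14.8 CPM (SD, n = 5), a 2.901-fold difference (log2 fold change 1.54, SE 0.19). Mt2, which encodes another metallothionein, was at 5.07, 7.46, 7.55 and 13.1 CPM in WT and at 18.1, 22.6, 23.9, 23.9 and 27.9 CPM in KO. The KO to WT fold of Mt2 was 2.78 (log2 fold change 1.48, SE 0.23). The genes were chosen with this contrast known, so these values are a description and carry no test.

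Mt4 was almost absent from WT on day 0 and present in each KO library. WT libraries held 0, 1, 1 and 1 counts of Mt4, and KO libraries held 8, 13, 14, 15 and 30 counts. The KO mean of 1.40 ± 0.893 CPM (SD, n = 5) was at least 6.43-fold higher than the level of 3 counts in WT. Mtf1 went the other way on day 0, at 31.6 to 38.04 CPM in WT and 25.4 to 28.9 CPM in KO, without overlap. Mean Mtf1 was 34.5 ± 2.85 CPM in WT (SD, n = 4) against 27.1 ± 1.59 CPM in KO (SD, n = 5), which is -0.36 on the log2 scale (SE 0.09). Slc30a1 (54.6 and 51.6 CPM in WT and KO), Slc39a4 (165 and 192 CPM) and Slc39a14 (53.4 and 55.3 CPM) overlapped between the genotypes. The groups did not overlap for 4 of the 7 genes, 3 higher and 1 lower in KO. Of all 14944 genes that passed the filter on low counts, 3.38% did not overlap, 2.05% higher and 1.32% lower. That share is the background for genes that this contrast helped to choose.

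Small intestine markers moved with genotype on day 0. Over the 6 of 11 listed markers that passed the filter, the median log2 fold change was 1.62, and it was -0.003 over all genes. The summed level of the 11 markers was 22.8 to 40.95 CPM in WT and 43.2 to 231 CPM in KO, and the highest library, d0_KO_60, also had the highest Mt4 (2.98 CPM). Of this list Defa24 was at 0 in 32 of the 38 libraries and Apoa4 in 20. With the marker score as a covariate the log2 fold change was 1.36 for Mt1 and 1.31 for Mt2. That of Mt4 was 4.47 with the covariate and 5.14 without it, and both rest on WT counts of 0 or 1. The marker sums did not overlap between the genotypes, so these markers and genotype cannot be cleanly separated on day 0. Squamous markers overlapped between the genotypes. Their sum was 3.35 to 4.71 CPM in WT and 2.88 to 3.94 CPM in KO, and Krt5 and Sprr1b had at most 3 counts in all 38 libraries.

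**Figure D1:**
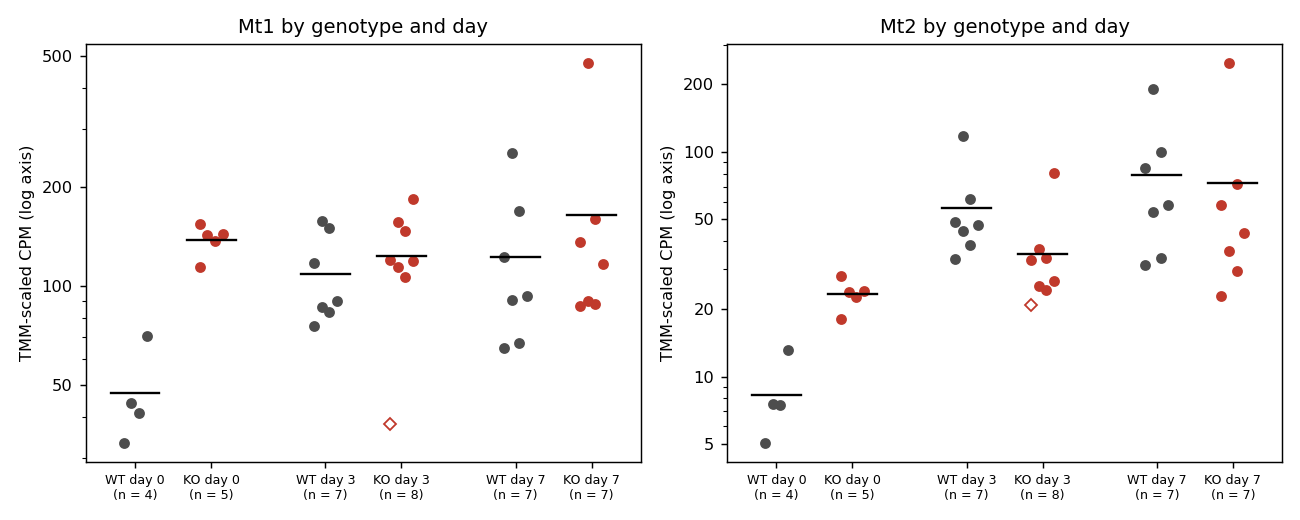
Mt1 (left) and Mt2 (right) in TMM-scaled CPM on a log axis, 1 point per library in the 6 groups, with the arithmetic mean as a line and the library labelled d3_KO_345 as an open diamond. On day 0 all 5 KO libraries lie above all 4 WT libraries for both genes, and on days 3 and 7 the genotypes overlap.

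During colitis the genotypes overlapped in Mt1. On day 3 Mt1 ranged from 75.6 to 157 CPM in WT (median 90.4, mean 109 ± 33.5 SD, n = 7) and from 38.2 to 183 CPM in KO (median 120, mean 123 ± 42.9 SD, n = 8). The lowest value of day 3 was that of the library labelled d3_KO_345. The other 7 KO libraries lay between 107 and 183 CPM, still overlapping WT. The log2 fold change of Mt1 on day 3 was 0.19 with a 95% interval of -0.35 to 0.72 (edgeR quasi-likelihood test, adjusted p = 0.82). On day 7 Mt1 ranged from 64.9 to 254 CPM in WT (median 93.6) and from 86.9 to 475 CPM in KO (median 117). KO differed from WT by 0.41 on the log2 scale (interval -0.46 to 1.29, edgeR adjusted p = 0.665), and it was -0.12 without d7_KO_420, which held the value of 475 CPM. This library also had the highest inflammation sum (2532 CPM) and leukocyte sum (661 CPM) of its group, and their part in its Mt1 level was not tested.

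Mt2 was at lower values in most KO libraries of day 3, and no difference passed the adjusted test on either day. On day 3 Mt2 ranged from 33.4 to 118 CPM in WT (median 47.5) and from 20.8 to 80.4 CPM in KO (median 29.9). In KO, 7 of 8 libraries were at or below 37.1 CPM, and in WT 6 of 7 were above that value. KO differed from WT by -0.67 on the log2 scale (SE 0.30, interval -1.31 to -0.03), with an unadjusted p of 0.0407 and an adjusted p of 0.623 in the edgeR test. It was -0.37 without d3_WT_486, the highest WT library, and -0.96 without d3_KO_349, the highest KO library. On day 7 the groups spread over similar ranges, 31.2 to 189 CPM in WT and 22.9 to 249 CPM in KO. KO then differed from WT by -0.12 on the log2 scale (interval -1.23 to 1.00, edgeR adjusted p = 0.939).

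Because Mt1 and Mt2 differed in sign on day 3, their ratio was taken within each library, a measure chosen after the values were seen. In all 38 libraries Mt1 had more counts than Mt2. On day 0 there were 5.35 to 6.60 Mt1 counts per Mt2 count in WT and 5.15 to 6.44 in KO, with full overlap. On day 3 the ratio was 2.09 ± 0.53 in WT (SD, n = 7, range 1.34 to 3.08) and 3.74 ± 1.18 in KO (SD, n = 8, range 1.84 to 4.95). On the log2 scale KO was higher by 0.80 (two-sided exact permutation p = 0.00746). The highest WT value was that of d3_WT_346 and the lowest KO value that of d3_KO_345. Their Hk2 was 97.0 CPM (d3_WT_346) and 434.6 CPM (d3_KO_345). With both left out, Hk2 on day 3 was 143 to 220 CPM in WT (n = 6) and 68.4 to 127.9 CPM in KO (n = 7). With all libraries as labelled, d3_KO_349, d3_KO_350 and d3_KO_388 also lay inside the WT range of Hk2. Without both, the ratio ranged from 1.34 to 2.26 in WT and from 2.28 to 4.95 in KO. The values left out were the highest of WT and the lowest of KO, which favoured a separation of the groups. On day 7 the ratio was 1.69 ± 0.27 in WT (SD, n = 7, range 1.34 to 2.08) and 2.63 ± 0.63 in KO (SD, n = 7, range 1.91 to 3.84), a log2 difference of 0.62 (exact permutation p = 0.00175). Only 1 KO library of day 7, d7_KO_420 at 1.91, fell within the WT range, and its Hk2 level also lay within that of WT. Its Tdpx-ps1 level (1.63 CPM) lay within that of the other KO libraries of day 7. Since the ratio was picked on these libraries, its p-values are not independent evidence.

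**Figure D2:**
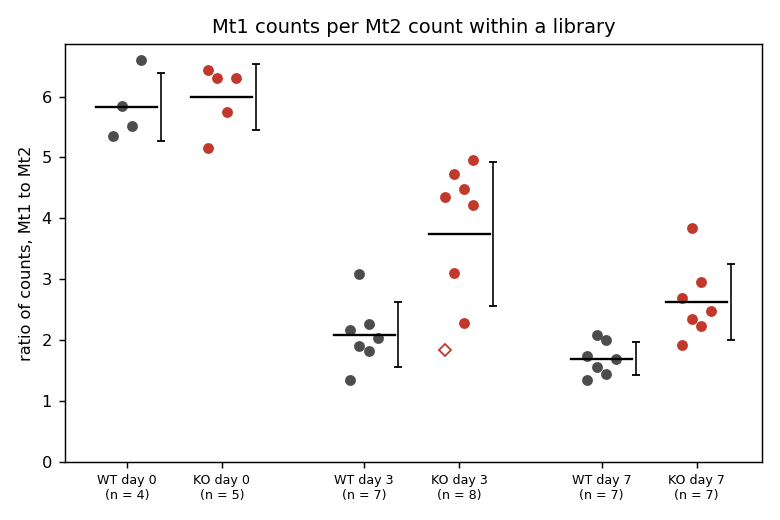
Mt1 counts divided by Mt2 counts in each library, by group, with mean (line) and SD (bar beside it). The ratio is near 6 in both genotypes on day 0 (means 5.83 and 5.99), and on days 3 and 7 most KO points lie above the WT points.

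Set beside the untreated libraries, Mt2 stood furthest off in WT, and in KO Mt4 did on day 3 and Mt2 on day 7. The Mt2 log2 fold change against day 0 was 2.74 (SE 0.37) on day 3 and 3.22 (SE 0.51) on day 7 in WT. In KO it was 0.60 (SE 0.28) and 1.61 (SE 0.53), and that of Mt4 in KO was -1.19 (SE 0.44) and -1.46 (SE 0.34). Mt1 in WT stood at 1.19 (SE 0.25) and 1.35 (SE 0.37) on the same scale, and in KO at -0.16 (SE 0.25) and 0.22 (SE 0.39). The Mt1 mean in KO day 0 (138 CPM) thus lay between the means of the DSS groups (109 to 165 CPM). These offsets also hold the difference between the library series and have no test. Within the series of days 3 and 7, Mt2 in KO had a log2 fold change of 1.00 from day 3 to day 7 (SE 0.46, edgeR adjusted p = 0.149), and in WT of 0.47 (SE 0.38, adjusted p = 0.437). Without d7_KO_420 the KO value was 0.28, and without d7_WT_393 the WT value was 0.079.

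Mt4 remained a low gene whose KO libraries were mostly above WT. On day 3 WT ranged from 0.02 to 1.03 CPM (median 0.07, 1 to 49 counts) and KO from 0.23 to 1.15 CPM (median 0.49, 8 to 50 counts). In WT only d3_WT_346 (1.03 CPM) and d3_WT_381 (0.66 CPM) reached the KO range. On day 3 KO exceeded WT by 1.24 on the log2 scale (interval -0.23 to 2.72, edgeR adjusted p = 0.632), and 2.46 without d3_WT_346 (adjusted p = 0.355). On day 7 WT ranged from 0.0667 to 0.337 CPM (3 to 15 counts) and KO from 0.362 to 0.751 CPM (17 to 29 counts), with no overlap. The means were 0.206 ± 0.112 CPM (SD, n = 7) and 0.512 ± 0.151 CPM (SD, n = 7). KO exceeded WT by 1.34 on the log2 scale (SE 0.34, interval 0.61 to 2.06, unadjusted p = 0.00127, edgeR adjusted p = 0.291). Of the 7 genes Mt4 alone was without overlap on day 7, where this held for 0.282% of the 15584 genes tested (0.16% higher and 0.122% lower in KO). The library labelled d3_KO_345 had 0.333 CPM of Mt4, within the range of the other KO libraries but also below 2 WT libraries. The mean of Mt4 fell in order from KO day 0 (1.40 CPM) over KO day 3 (0.596) and KO day 7 (0.512) to WT day 3 (0.276), WT day 7 (0.206) and WT day 0 (0.0451). Every pair of neighbours in that order overlapped.

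**Figure D3:**
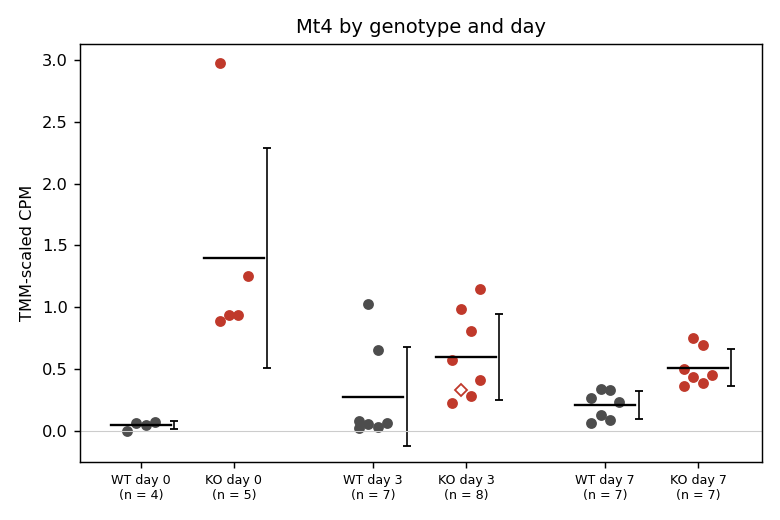
Mt4 in TMM-scaled CPM, 1 point per library, with mean (line) and SD (bar beside it), the library labelled d3_KO_345 as an open diamond. WT day 0 sits at or below 0.0725 CPM and KO day 0 at 0.891 to 2.98 CPM, and on day 7 the KO points lie above the WT points.

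Mtf1, the factor that senses zinc, had higher means in KO than in WT on both days of colitis, and the adjusted test did not call either difference. On day 3 Mtf1 ranged from 25.2 to 43.3 CPM in WT (median 29.3) and from 30.3 to 46.3 CPM in KO (median 33.1). The top value in WT came from d3_WT_346 and the top value in KO from the library labelled d3_KO_345. On day 7 it ranged from 26.02 to 37.5 CPM in WT (median 29.9) and from 33.0 to 48.8 CPM in KO (median 38.2). The log2 fold changes were 0.18 (SE 0.11, edgeR adjusted p = 0.655) on day 3 and 0.34 (SE 0.10, adjusted p = 0.291) on day 7. On day 0 the difference had the opposite sign (-0.36).

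Over days 3 and 7 together, with day in the model, none of the 7 genes was called at an adjusted p under 0.05 in edgeR, where 0.0122% of the 16371 genes were called. Mt4 (log2 fold change 1.28, SE 0.41, adjusted p = 0.102) and Mtf1 (0.25, SE 0.08, adjusted p = 0.0925) came nearest. These were the 2 of the 7 with an unadjusted p under 0.05, which held for 21.5% of all genes tested. Without d3_WT_346 both were called, Mt4 at 1.81 (adjusted p = 0.0267) and Mtf1 at 0.30 (adjusted p = 0.0279). That library held the highest value of both genes in WT day 3, so leaving it out favoured these calls. Of all genes, 2 were called over both days with all libraries, 555 without d3_WT_346, 470 without d7_KO_420, 135 without d7_WT_419 and 104 without d3_KO_351. Leaving out d3_KO_345, whose label is in doubt, gave 4 genes and 0 of the 7. Leaving out d3_KO_385, d3_KO_387 or d3_KO_388 gave 1 gene each. DESeq2 called Mtf1 (0.26, adjusted p = 0.0463) and no other of the 7, among 566 genes it called in all. The pooled log2 fold change was 0.25 for Slc39a4 (interval -0.003 to 0.49, edgeR adjusted p = 0.238) and 0.19 for Slc30a1 (interval -0.01 to 0.38, adjusted p = 0.262). It was 0.29 for Mt1 (adjusted p = 0.491), -0.41 for Mt2 (adjusted p = 0.447) and 0.02 for Slc39a14 (interval -0.15 to 0.18, adjusted p = 0.915).

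On the single days, edgeR called 0 of the 7 genes on day 3 and 0 of the 7 on day 7, against 0.00647% and 0.00642% of all genes tested. At an unadjusted p under 0.05 there was 1 of the 7 on day 3 (Mt2), beside 7.88% of all genes tested. There were 2 of the 7 on day 7 (Mt4 and Mtf1), beside 12.9% of all genes tested. DESeq2 called 0 of the 7 on either day. No gene of the 7 was without overlap on day 3, where 0.0323% of all genes were. A change of the genotype difference between days 3 and 7 was called for 0 of the 7 genes and for 0 of all 16371 genes (0.0% called) by edgeR, and for 0 by DESeq2. At an unadjusted p under 0.05 there were 0 of the 7 and 440 of all genes.

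Slc39a4, the apical zinc importer, rose from day 3 to day 7 in both genotypes. In WT it went from 125 to 229 CPM (median 146) on day 3 to 209 to 378 CPM (median 286) on day 7. The WT groups met only through d3_WT_381 (229 CPM), since the other 6 libraries of day 3 were at or below 158 CPM. In KO it went from 106 to 250 CPM (median 198) to 226 to 414 CPM (median 332). The overlap in KO came from 2 libraries of day 7 (226 and 249.8 CPM) and 2 of day 3 (244 and 250.1 CPM). The means were 154 ± 34.8 and 273 ± 64.4 CPM in WT (SD, n = 7 each) and 187 ± 53.9 and 318 ± 65.2 CPM in KO (SD, n = 8 and n = 7). The WT rise was 1.75-fold (log2 fold change 0.81, SE 0.16, edgeR adjusted p = 0.0023). The KO rise was 1.66-fold (log2 fold change 0.73, SE 0.18, edgeR adjusted p = 0.00762). The difference between these changes was -0.06 (interval -0.56 to 0.45, edgeR adjusted p = 1.0).

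Of the 7 genes, 1 of the 6 that passed the filter on low counts was called from day 3 to day 7 in WT and 1 of 7 in KO, Slc39a4 each time, while Mt4 did not pass that filter in WT. Of all genes tested, 19.3% were called in WT (10.6% higher, 8.7% lower) and 19.3% in KO (10.5% higher, 8.83% lower), so a share of this size is close to the background. For 0 of the 7 genes the days did not overlap in either genotype, which held for 4.6% of all genes in WT (2.95% higher, 1.65% lower) and 5.07% in KO (3.0% higher, 2.07% lower). Inflammation genes moved with the same contrast, with 11 of 12 higher in WT and 10 of 12 in KO. Their summed level went from 19.9 to 46.6 CPM to 255 to 1804 CPM in WT and from 22.3 to 177 CPM to 182 to 2532 CPM in KO. These sums did not overlap between the days, so a covariate cannot tell inflammation and day apart. Of 10 leukocyte markers, 9 rose in WT and 10 in KO. With the inflammation score as a covariate the log2 fold change of Slc39a4 was 0.22 in WT (adjusted p = 0.874) and 0.11 in KO (adjusted p = 0.907), and with that covariate 0 genes were called in WT and 5 in KO. With the small intestine score it was 0.45 in WT (adjusted p = 0.557), with 20 genes called, and 0.60 in KO, where it was still called (adjusted p = 0.0369). The summed colonic markers overlapped between the days (12209 to 21155 and 13462 to 20705 CPM in WT). Of the 11 colonic markers, 1 was called lower in WT and 2 in KO, and 0 were called higher. This stands beside 8.7% and 8.83% of all genes called lower. The median log2 fold change of the list was 0.0056 in WT and -0.014 in KO. Of single markers, Slc26a3, a chloride exchanger, fell in WT (log2 fold change -0.47, edgeR adjusted p = 0.0453) and in KO (-0.97, adjusted p = 0.000701), and the water channel Aqp8 fell in KO (-1.77, adjusted p = 0.00192). The WT call of Slc26a3 held in 5 of 14 fits that left out 1 library. Within day 7 the centred correlation of Slc39a4 with the inflammation score over 14 libraries was r = 0.51 (permutation p = 0.0778, adjusted p = 0.207) and rho = 0.442 (permutation p = 0.127, adjusted p = 0.338), with r = 0.389 without the 2 farthest libraries.

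**Figure D4:**
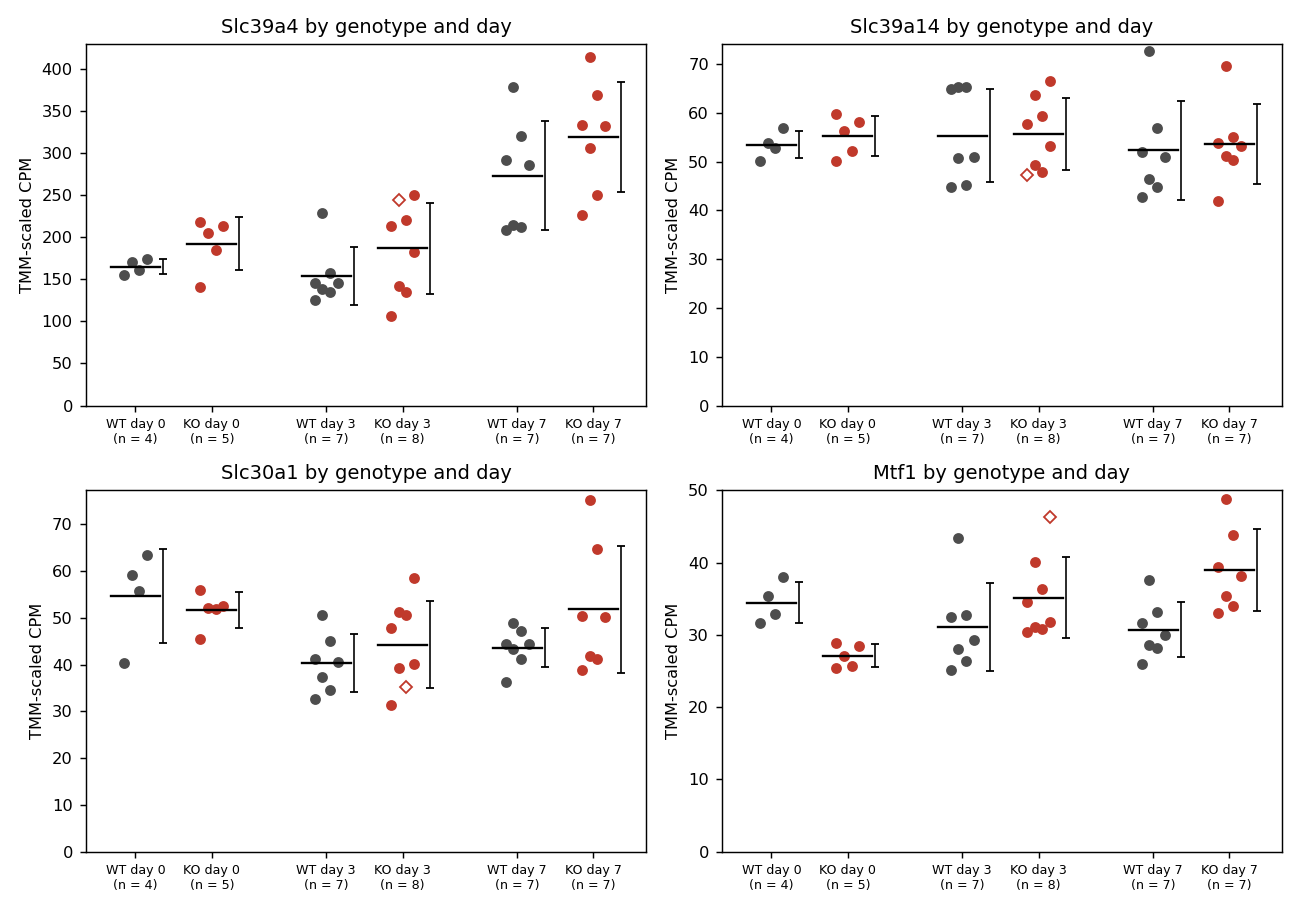
Slc39a4, Slc39a14, Slc30a1 and Mtf1 in TMM-scaled CPM, 1 point per library, with mean (line) and SD (bar beside it), the library labelled d3_KO_345 as an open diamond. Slc39a4 sits higher on day 7 (group means 273 and 318 CPM) than on day 3 (154 and 187 CPM), and the group means of Slc39a14 lie between 52.4 and 55.6 CPM.

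Slc39a14, an importer that inflammation induces in liver, differed little in mean between the groups. They were 53.4 (WT day 0), 55.3 (KO day 0), 55.3 (WT day 3), 55.6 (KO day 3), 52.4 (WT day 7) and 53.6 CPM (KO day 7), with SDs of 2.75 to 10.1 CPM. All 38 libraries lay between 42.0 and 72.6 CPM. The log2 fold change from day 3 to day 7 was -0.10 in WT (interval -0.37 to 0.16, edgeR adjusted p = 0.633) and -0.10 in KO (interval -0.31 to 0.12, adjusted p = 0.577). KO and WT differed by 0.01 on day 3 (interval -0.22 to 0.24) and 0.03 on day 7 (interval -0.22 to 0.29). With the inflammation score as a covariate the value from day 3 to day 7 was -0.90 in WT (edgeR adjusted p = 0.46) and -0.10 in KO. The summed inflammation genes did not overlap between these days in either genotype, so that fit cannot tell day and inflammation apart.

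Slc30a1, the exporter and a known target of MTF-1, stayed between 31.3 and 75.1 CPM in all libraries. Its group means were 54.6 ± 10.1 CPM (SD, n = 4) in WT day 0 and 51.6 ± 3.85 (n = 5) in KO day 0. They were 40.3 ± 6.20 (n = 7) in WT day 3, 44.3 ± 9.24 (n = 8) in KO day 3, 43.7 ± 4.14 (n = 7) in WT day 7 and 51.8 ± 13.5 (n = 7) in KO day 7. The highest value was again that of d7_KO_420. The log2 fold change of KO against WT was 0.14 on day 3 (interval -0.14 to 0.41, edgeR adjusted p = 0.742) and 0.25 on day 7 (interval -0.04 to 0.54, adjusted p = 0.436). From day 3 to day 7 it was 0.10 in WT (adjusted p = 0.568) and 0.19 in KO (adjusted p = 0.473).

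**Figure D5:**
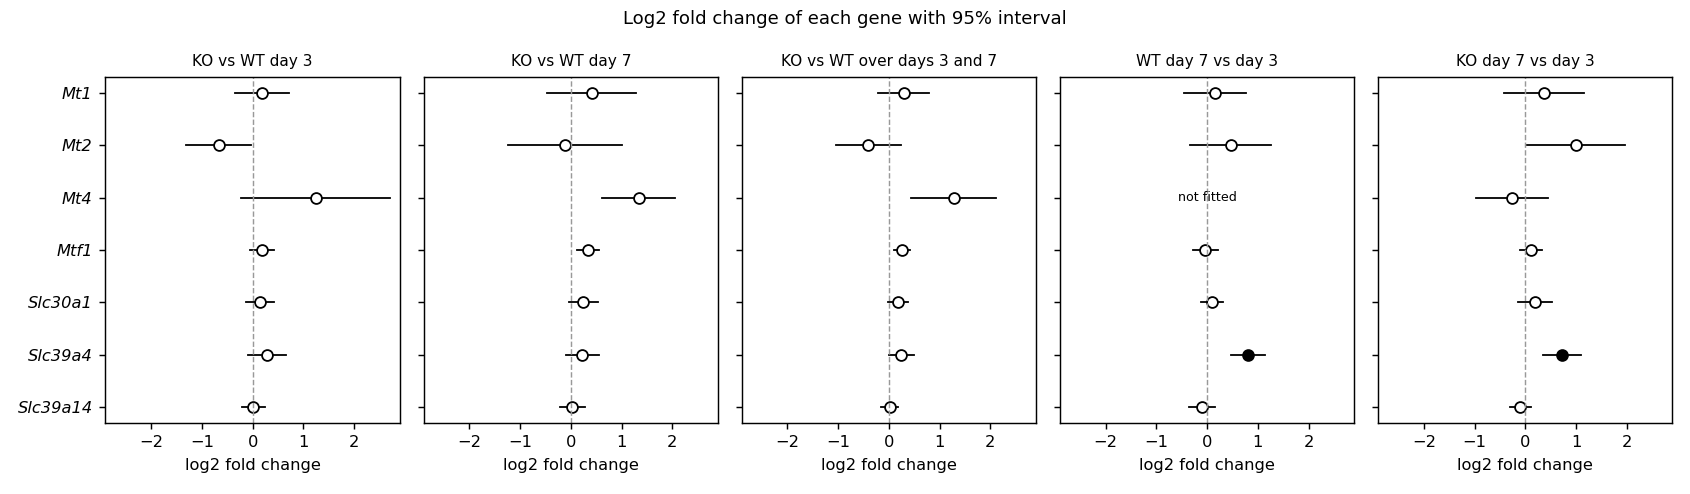
Log2 fold change (point) and 95% interval (line) of the 7 genes in 5 comparisons from the edgeR fits, with filled points for an adjusted p under 0.05. Only Slc39a4 from day 3 to day 7 is filled, at 0.81 in WT and 0.73 in KO, and the intervals of Mt1, Mt2 and Mt4 are wider than those of the other genes.

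Per length of annotated exons, Mt1 led the 29 zinc genes examined, that is the 7 members and 22 other zinc transporters and metallothioneins. This length covers the exons of all transcripts of a gene, 540 bases for Mt1 and 10550 for Slc39a14, so the order depends on the annotation. Over the 29 libraries of days 3 and 7, its level was 240 CPM per kb (SD 147, range 70.7 to 879.6). Mt2 came next at 108 (SD 91.1), beside Slc39a4 at 104 (SD 38.1), and these neighbours did not differ beyond their spread. Slc39a1 (45.7 CPM per kb), Slc39a5 (42.4) and Slc39a9 (36.4) followed. Slc30a1 was at 8.58, Slc39a14 at 5.14, Mtf1 at 3.82 and Mt4 at 1.03 CPM per kb. Slc30a8, the zinc transporter of insulin granules, was at 0 in every library, and Slc30a3 had at most 3 counts in 35 libraries.

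Of the 22 other zinc genes, 19 passed the filter in the comparisons within the DSS series. Between KO and WT, edgeR called 0 of them on day 3, on day 7 and over both days, with 2, 0 and 2 at an unadjusted p under 0.05. Of all genes tested, 7.88%, 12.9% and 21.5% were under that unadjusted level. From day 3 to day 7, 2 rose and 1 fell in WT, and 3 rose and 1 fell in KO, shares near the 19.3% of all genes called in each genotype. Slc30a10, which exports manganese, fell from 25.9 ± 8.40 to 8.06 ± 3.53 CPM in WT (SD, n = 7 each, log2 fold change -1.70, edgeR adjusted p = 0.000603). In KO it fell from 17.8 ± 8.78 (n = 8) to 7.86 ± 3.04 CPM (n = 7, log2 fold change -1.22, adjusted p = 0.0201). Slc39a1, a plasma membrane importer, rose by 0.28 on the log2 scale in WT (adjusted p = 0.0188) and by 0.33 in KO (adjusted p = 0.00636). Slc30a2, a vesicular transporter known from Paneth and mammary cells, rose from a mean of 0.561 ± 0.208 CPM to 1.94 ± 1.66 CPM in WT (SD, n = 7 each, adjusted p = 0.0133). In KO its means were 0.561 ± 0.193 CPM (n = 8) and 2.88 ± 5.68 CPM (n = 7, log2 fold change 2.28, adjusted p = 0.0445), with 15.8 CPM in d7_KO_420 and 0.735 ± 0.349 CPM in the other 6 libraries. Without d7_KO_420 its log2 fold change was 0.34 (adjusted p = 0.458). Slc39a5, a basolateral importer, rose by 0.20 in KO (adjusted p = 0.0251, and 0.0582 without d7_KO_367). The median log2 fold change of the 19 genes was 0.007 in WT and 0.006 in KO, beside 0.01 and -0.007 over all genes.

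Of 15 genes of copper and iron transport that passed the filter, 3 rose and 1 fell in each genotype from day 3 to day 7, beside 19.3% of all genes called. The transferrin receptor gene Tfrc rose from 201 ± 47.1 to 361.3 ± 189 CPM in WT and from 217 ± 45.6 to 360.8 ± 108 CPM in KO (adjusted p = 0.0322 and 0.00728). The WT call was lost without d3_WT_346, d3_WT_348, d3_WT_486, d3_WT_487 or d7_WT_431 (adjusted p = 0.0518 to 0.0645). Heph, the copper-dependent ferroxidase of enterocytes, rose from 144 ± 24.4 to 197 ± 24.2 CPM in WT (adjusted p = 0.0127), and Slc40a1, the iron exporter, from 155 ± 33.9 to 256 ± 92.1 CPM in KO (adjusted p = 0.0171). Cp, ceruloplasmin, rose at low mean levels, from 0.169 to 1.02 CPM in WT and from 0.233 to 0.740 CPM in KO (adjusted p = 0.00963 and 0.0203). Atp7b, a copper-transporting ATPase, fell in WT (log2 fold change -1.75, adjusted p = 0.00422) and in KO (-2.18, adjusted p = 0.000126).

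Lists of genes that respond to known inducers of metallothioneins were counted in the same contrast, in which 19.3% of all genes were called in each genotype. Of 8 glucocorticoid-responsive genes, 2 rose and 1 fell in WT, and 1 rose in KO. Fkbp5, which limits glucocorticoid receptor activity, rose from 167 ± 56.9 to 480 ± 173 CPM in WT (adjusted p = 0.000787) and from 190 ± 54.5 to 397 ± 193 CPM in KO (adjusted p = 0.00523). Klf9 fell in WT (log2 fold change -0.64, adjusted p = 0.0174). Of 10 genes of the IL-6 and STAT3 response, 7 rose in WT and 5 in KO, among them Reg3g, an antimicrobial lectin (log2 fold change 3.12 and 2.81), and Lrg1 (5.56 and 5.19). Of 10 NRF2 targets, 5 rose in WT and 3 in KO, among them Slc7a11, the cystine importer (2.89 and 2.15). The median log2 fold change was 1.57 and 0.985 for the STAT3 list in WT and KO, 0.413 and 0.226 for the NRF2 list, and 0.212 and 0.0301 for the glucocorticoid list. Between KO and WT on day 3, day 7 or over both days, edgeR called 0 genes in each of these lists, with 0 to 3 per list at an unadjusted p under 0.05. That unadjusted level was reached by 7.88%, 12.9% and 21.5% of all genes tested in these 3 comparisons.

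Within a day, libraries that were high in Mt1 were high in Mt2. On day 7 the correlation of the log2 levels, each centred on its genotype mean, was r = 0.986 and rho = 0.96 over 14 libraries. Both had a permutation p of 1e-05, the smallest that 100000 resamples can give, and an adjusted p of 0.00016 over 16 relations. Without the 2 libraries farthest from the median, d7_KO_420 and d7_WT_393, r was 0.958. On day 3 r was 0.692 (permutation p = 0.016, adjusted p = 0.0642) and rho 0.814 (permutation p = 0.0005, adjusted p = 0.004) over 15 libraries, and r was 0.685 without the 2 farthest. Without the library labelled d3_KO_345, r on day 3 was 0.779 (adjusted permutation p = 0.006). Both genes share the depth and composition of each library.

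Mt1 and the exporter Slc30a1 were related on day 7 at r = 0.709 (permutation p = 0.00425, adjusted p = 0.034) and rho = 0.657 (permutation p = 0.011, adjusted p = 0.0585). Without d7_KO_420 and d7_KO_366 r was 0.418, so this relation rests on those libraries. On day 3 it was r = 0.151 (permutation p = 0.67, adjusted p = 0.714, rho = 0.0714). Slc39a14 followed the inflammation score on day 7 at r = 0.707 (permutation p = 0.00833, adjusted p = 0.0444). Its rho was 0.477 (permutation p = 0.0993, adjusted p = 0.318), and r was 0.307 without d7_KO_420 and d7_WT_356, so this relation also rests on those libraries. Mt1 with Slc39a4 (r = -0.531 on day 3 and 0.0654 on day 7, adjusted permutation p = 0.186 and 0.827) and Mt1 with the inflammation score (r = -0.679 and 0.383, adjusted p = 0.229 and 0.269) did not pass the threshold. The value of -0.679 on day 3 became 0.244 without the library labelled d3_KO_345.

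By likeness of pattern over the 29 libraries of days 3 and 7, centred on group means, the 5 genes nearest to Mt1 among 10546 other genes were Tmem191c (r = 0.807), Gm15998 (0.804), Phkg2 (0.801), Sgk1 (0.797) and Pcgf2 (0.793). Mt2 itself was at 0.888. Sgk1 is a glucocorticoid-induced kinase and was on the list of glucocorticoid-responsive genes. In WT day 7, d7_WT_393 held the highest value of both Sgk1 (525 CPM) and Mt1 (254 CPM). Whether glucocorticoids bear on the Mt1 levels was not tested. For Slc39a4 the nearest were Heph (0.855), Mcu, the mitochondrial calcium uniporter (0.849), Rap2c (0.83), Cdh17, an intestinal cadherin (0.83), and Agpat2 (0.828). For Slc39a14 they were Phf12 (0.873), Ankrd13b (0.836), Zfp292 (0.836), Fam199x (0.829) and Tle3 (0.822). The 99th percentile of r over all genes was 0.676, 0.721 and 0.72 for these 3, and all genes of a library share its depth and composition.

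The other tested genes near the metallothioneins, within 100 kb, were Bbs2, Mt3 and Nup93, and none of them was called between KO and WT. On day 7 the log2 fold change of KO against WT was -0.01 for Bbs2 (SE 0.11, edgeR adjusted p = 0.984), 0.10 for Mt3, the metallothionein known from brain (SE 0.33, adjusted p = 0.91), and -0.14 for Nup93 (SE 0.10, adjusted p = 0.559). On day 3 the values were -0.14, -0.15 and 0.08 (adjusted p = 0.752, 0.846 and 0.772). On day 0, as a description, they were 0.22, 0.74 and -0.08, with Mt3 at 1.95 ± 0.489 CPM in WT (SD, n = 4) and 3.29 ± 0.752 CPM in KO (SD, n = 5).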

How the data were processed

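RNA-seq libraries of isolated intestinal epithelial cells were analysed, 38 in all, grouped by the genotype and day in the labels. Raw counts of each gene were deposited, which the authors made with featureCounts 1.6.2 with strand ignored, per the file headers. The submitters' processing notes name Trim Galore, STAR, featureCounts 1.5.2 and GRCm38. The counts of 2 lanes were summed per library. Genes were tested with the edgeR 4.0.16 quasi-likelihood test (R 4.3.3, TMM scaling, filterByExpr by group) on the compared groups, with Benjamini-Hochberg adjustment over all genes tested and a threshold of 0.05. DESeq2 1.42.0, other scaling and filters, lane 1 alone, covariates and left-out libraries were alternatives. Each SE was derived from a gene's F value. Intervals and p-values cover the spread between libraries, and floors of 3 counts cover counting error only. Correlations used log2 CPM (prior count 2). The scripts were tested on simulated data.

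Members and gene lists were chosen with earlier results of these data known. Named were the 7 members and Hk2, up to 3 called genes with the smallest p per list, direction and comparison, the zinc genes with the highest level per length, the 5 nearest genes by likeness, and neighbours within 100 kb. The lists were zinc exporters and importers, copper and iron, glucocorticoid, IL-6 and STAT3, NRF2, inflammation, colon, small intestine, squamous, leukocyte and stroma. Libraries of a group carry different animal numbers, so p-values measure the spread between those animals' libraries.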

Additional observations from a re-analysis of the deposited data

Results flagged for a closer look

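In 7 of the 42 sets of libraries checked (7 genes in 6 groups) 1 library lay far from the others of its group by Dixon's criterion. Chance gives about 1 in 20 where values are independent and normally spread. These values were CPM without log scaling, and Mt1 and Mt2 went together. The count therefore cannot be set against that rate. The library d7_KO_420 was far above the other KO libraries of day 7 for Mt1 (475 CPM, next 160) and Mt2 (249 CPM, next 72.0). It also held the highest Slc30a1, Slc39a4, Slc39a14, inflammation and leukocyte levels of its group. For Mt2 on day 3, d3_WT_486 stood at 118 CPM (next 61.9) and d3_KO_349 at 80.4 CPM (next 37.1). For Mt4 on day 0, d0_KO_60 stood at 2.98 CPM (next 1.25), and it had the highest small intestine sum of all 38 libraries. For Mtf1 on day 3, d3_WT_346 stood at 43.3 CPM (next 32.7). For Slc39a4 on day 3, d3_WT_381 stood at 229 CPM (next 158).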

How the results depend on the processing

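Of 2208 recomputed values, 2060 kept their direction and side of the threshold. No paired analysis was possible because animal numbers are not shared between the groups compared. Leaving out single libraries was not run for the interaction or the correlations, except d3_KO_345. Counts of the 7 genes called over days 3 and 7 were 1 with DESeq2, 2 without both d3_KO_345 and d3_WT_346 (a choice made after seeing the data, with 212 genes called in all), and 0 to 2 leaving out 1 library at a time. From day 3 to day 7 they were 0 in WT with the small intestine or the inflammation score as a covariate, and 0 in KO with the inflammation score. All genes called on day 7 numbered 1 in edgeR, 89 in DESeq2 and 38 in a fit of all 38 libraries, and over both days 2, 566 and 159. With the inflammation score 0 genes were called in WT and 5 in KO from day 3 to day 7, so the counts of the 7 genes fall with all calls. The cause of these shifts was not tested.

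Some log2 fold changes changed sign, among them that of Mt2 from day 3 to day 7 in KO, which was 1.00. With lane 1 alone these were Slc39a14 on day 3 (-8.19e-05) and Mtf1 from day 3 to day 7 in WT (0.0099). With the small intestine score they were, in WT from day 3 to day 7, Mt1 (-0.46), Mt2 (-0.23), Mtf1 (0.034) and Slc30a1 (-0.18), and in KO Mt1 (-0.14). With the inflammation score they were Slc30a1 in WT (-0.15), Mt1 (-0.81), Mt2 (-1.15), Mtf1 (-0.051) and Slc30a1 (-0.13) in KO, and the interaction of Slc39a4 (0.054). Without both libraries the interaction was -0.0016 for Mt1 and -1.19 for Mt4, and without d3_KO_345 it was -0.017 for Slc39a14. Leaving out 1 library at a time, the log2 fold change of Slc39a14 ranged from -0.034 to 0.057 on day 3, from -0.035 to 0.12 on day 7 and from -0.013 to 0.060 over both days. On day 7 it ranged from -0.12 to 0.70 for Mt1 and from -0.85 to 0.27 for Mt2. From day 3 to day 7 in WT it ranged from -0.12 to 0.27 for Mt1 and from -0.089 to 0.059 for Mtf1, and in KO from -0.16 to 0.48 for Mt1.

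Spearman's rho differed in call or sign from Pearson's r for Mt1 with Mt2 on day 3 (0.814), Mt2 with inflammation on day 3 (0.025), Mt1 with Slc30a1 (0.657), Mt1 with Slc39a4 (-0.156) and Slc39a14 with inflammation (0.477) on day 7. On day 3 without d3_KO_345, r was 0.779 for Mt1 with Mt2, -0.206 with Slc30a1, -0.0222 with Slc39a14 and 0.244 with inflammation, and 0.172 for Mt2 with inflammation. Without both libraries these were 0.894 (Mt2), -0.177 (Slc30a1) and, for Mt2 with inflammation, 0.248. Depth limits Mt4, which had at most 3 counts in 9 libraries.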

Other observations

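Between KO and WT on day 3, 6 of the 35 genes within 1 Mb of the metallothionein cluster that passed the filter had an unadjusted p under 0.05, which is 17.1%, beside 7.88% of all genes tested. Within 2 Mb it was 11.1% of 54 genes. They were Ces1d, Ces1e and Ces1f, neighbouring carboxylesterase genes, and Mt2, Ciapin1 and Coq9. On day 7 it was 15.8% of 38 genes, beside 12.9% of all, and edgeR called 0 of these genes after adjustment on either day. Ciapin1 and Coq9 were on both lists. Neighbouring genes are not independent, and these names were chosen after their values were seen.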
